A study of Rattus norvegicus with 9 samples.

Results

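Chemokines and their receptors were followed in liver RNA of normal rats, of rats with carbon tetrachloride (CCl4) liver fibrosis and of fibrotic rats given tormentic acid (TA), a plant triterpene. The genes were chosen by symbol: every Ccl or Cxcl ligand, Cx3cl1, Xcl1, every Ccr or Cxcr receptor, Cx3cr1, Xcr1 and the atypical receptors Ackr1 to Ackr4. The rule took 54 of the 17156 genes listed, 34 ligands and 20 receptors, and all 54 stood in both tables. Ackr1 and Cxcr1 are listed in neither table. The series held 9 libraries, 3 for each of the normal, model and TA groups (labelled rat wt, rat model and, for the TA libraries, rat TA1, rat TA2 and rat TA3), all poly(A) RNA from male Sprague-Dawley rats fasted for 12 h. The model and TA groups received CCl4 at 2 ml/kg, as a 50% solution in oil, 2 times a week for 9 weeks, while the normal group received saline. The TA group was then treated for 6 weeks at 3.0 mg/kg, a dose that stands in the description of the series and not in the labels of the libraries. How the model rats were kept during those 6 weeks is not given in the sources used here, so TA and the time after CCl4 cannot be told apart if the 2 groups differed in it. Nothing was knocked out or transgenic in any group. All libraries were from whole liver, in which fewer cells of a type and less RNA per cell cannot be told apart.

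Chemokines are small secreted proteins that direct the migration of leukocytes along gradients by binding G protein-coupled receptors on them. The CC, CXC, XC and CX3C families are named after the spacing of their first cysteines, and most receptors bind several ligands of 1 family. Atypical receptors bind chemokines without signalling through G proteins and remove or relocate them. In injured liver, Kupffer cells, hepatocytes, stellate cells, endothelium and bile duct cells are all known sources of these ligands.

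The libraries held between 13156735 and 18090405 counted reads. Replicate 1 of the model group stood apart, with 27.9% of its reads on its 50 most abundant genes against 40.4% to 45.7% in the other 8 libraries. Levels are given as CPM, read counts scaled to library size with TMM factors over all 9 libraries. Levels of different genes are compared only as the authors' FPKM, which divides by transcript length and scales to library totals without TMM factors. Where CPM and FPKM of the same gene order the libraries differently, the scaling differs and not the length. Scaling by library totals instead moved the median log2 fold change of all genes from 0.017 to 0.65 in the Model VS Normal comparison and from -0.0038 to -0.48 in TA VS Model. The hepatocyte marker Alb was present in every library, at 20092 CPM or more. A gene was called by edgeR's quasi-likelihood test at a Benjamini-Hochberg adjusted p under 0.05, or, by the study's own thresholds and below called p and fold, where the unadjusted p fell under 0.05 and the log2 fold change lay beyond 1 in either direction. The labels number the replicates without saying whether a library held 1 rat or a pool, so the p-values measure only the spread between these samples. An exact permutation test of 3 against 3 libraries, two-sided, cannot go below 0.1, and 0.1 was its value wherever 2 groups did not overlap.

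In normal liver the ligand mRNA was mostly that of a few genes. Per length, Ccl9 was the highest of the 54 genes at 211 ± 32.8 FPKM (SD, n = 3), followed by Ccl6 at 55.1 ± 16.1 and Cxcl12 at 49.6 ± 13.7. Ccl9 and Ccl6 are rodent CC chemokines made by myeloid cells, and Cxcl12 retains leukocytes and progenitors in tissues. Ccl6 and Cxcl12 differed by less than the spread between libraries. Next in order were Ccl5 at 30.5 ± 6.76 FPKM and Ccl27 at 11.4 ± 1.54. All 20 receptors together reached 9.55 to 20.7 FPKM per library, against 394 to 495 for the 34 ligands. In the model libraries the ligand sum was 604 to 1756 FPKM and the receptor sum 36.9 to 84.3, and in the TA libraries 410 to 469 and 15.2 to 28.3. These sums carry no TMM factors. Those factors were higher in every model than in every normal library, so the sums overstate the model group relative to CPM. Without Ccl21 the ligand sum was 838, 688 and 483 FPKM in the model libraries. It was then 379 to 487 in normal and 318 to 421 in TA libraries. Model replicate 3 thus lay within the normal range.

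The make-up of the ligand mRNA changed mainly through Ccl21, which guides dendritic cells and lymphocytes that carry Ccr7 into lymphatics and lymph nodes. Ccl21 was 1.58%, 1.76% and 3.68% of the summed ligand FPKM in normal replicates 1 to 3. It was 40.2%, 60.8% and 20.0% in the model replicates and 10.2%, 8.31% and 26.2% in the TA replicates. Every model and TA library thus lay above every normal library, while model and TA overlapped. The share of Ccl9 was 44.7% to 54.2% in normal, 18.3% to 36.4% in model and 31.3% to 52.0% in TA libraries. The share of Cxcl12 was 10.2% to 13.2% in normal, 0.984% to 5.80% in model and 5.67% to 7.66% in TA libraries. These shares are taken within a library and do not depend on scaling between libraries.

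**Figure D1:**
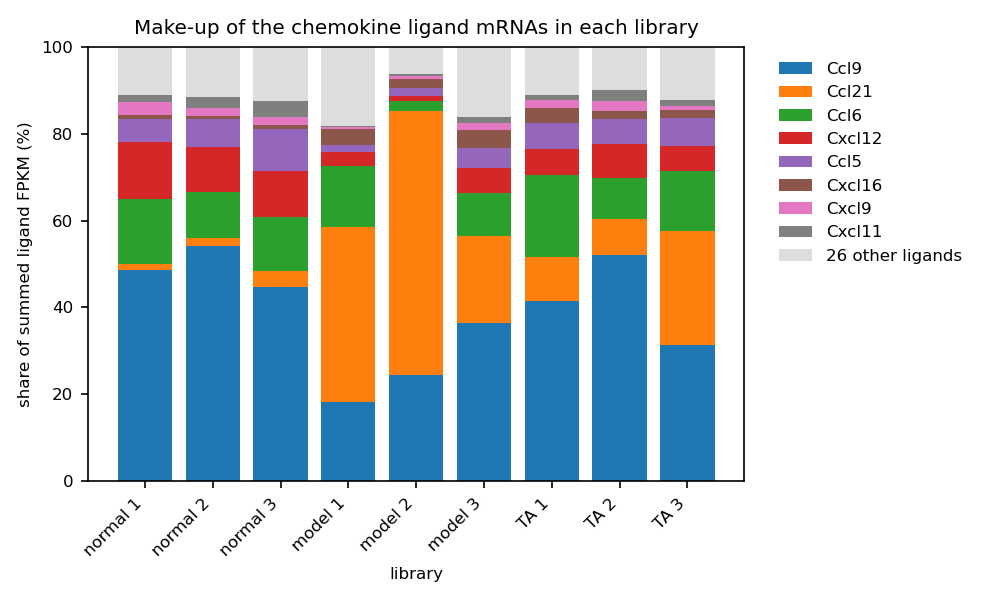
Share of the summed FPKM of 34 chemokine ligands (y axis, percent) held by 8 named ligands and by the 26 others in each library (x axis). Ccl21 takes 20.0% or more in every model library and 3.68% or less in every normal library.

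The Model VS Normal comparison asks which of these genes differ in CCl4 fibrosis. The filter on low counts passed 38 of the 54 members, 11 of them only through the model libraries and 2 only through the normal ones, so the counts below describe the tested members and not all members. At an adjusted p under 0.05, 9 members were higher in the model group: Ccl2, Ccl7, Ccl21, Cxcl3, Cxcl6, Cxcl16, Cx3cl1, Cxcr4 and Ackr3. Of all 12730 genes tested, 6.86% were called higher and 1.01% lower by this rule. No member was called lower, whereas 2 were lower at an unadjusted p under 0.05. By adjusted p, DESeq2 called 14 members higher and 2 lower, against 1910 and 804 of 16886 genes. With limma voom these were 14 and 4 members, against 1972 and 1461 of 12730 genes. By p and fold, 13 members were higher, against 16.6% of all genes tested, and 2 were lower, against 5.55%. The p and fold rule added Ccl19, Cxcl1, Ccr1 and Ccr3 on the higher side and took Cxcl12 and Ccl27 on the lower side. In CPM, the groups did not overlap for 15 members that were higher, against 20.9% of all genes, and for 7 that were lower, against 17.3%. The median log2 fold change was 0.90 over the tested members and 0.017 over all genes tested, and the former was 0.90 also with Cxcl3 set at its lower bound. Of the 9 members called, 4 (Ccl2, Ccl7, Cxcl3 and Cxcl6) had passed the filter only through the model libraries and could hardly be other than higher. Among the 13 higher by p and fold this held for 6, the same 4 with Ccr1 and Ccr3. With library totals, 21 members were higher by p and fold and 1 was lower. Of all 12730 genes, 3738 were then higher and 221 lower, against 2112 and 706 with TMM factors.

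These calls rested on few libraries. Without normal replicate 1, the members called at an adjusted p under 0.05 were Cx3cl1, Cxcl16 and Cxcl6, which makes 3. Over all genes, 46 were then higher and 5 lower. Without normal replicate 2 or 3 there were 0, as for all genes. Without model replicate 1, the library that stood apart, the same 9 members were higher, against 5.75% of all genes, and Ccl27 was lower, against 1.14%. Without model replicate 3 there were 14, when 1694 of 13159 genes were called higher and 843 lower. The study's rule gave 17 to 19 members with any library left out, and over all genes 1575 to 2477 higher and 486 to 1440 lower.

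**Figure D2:**
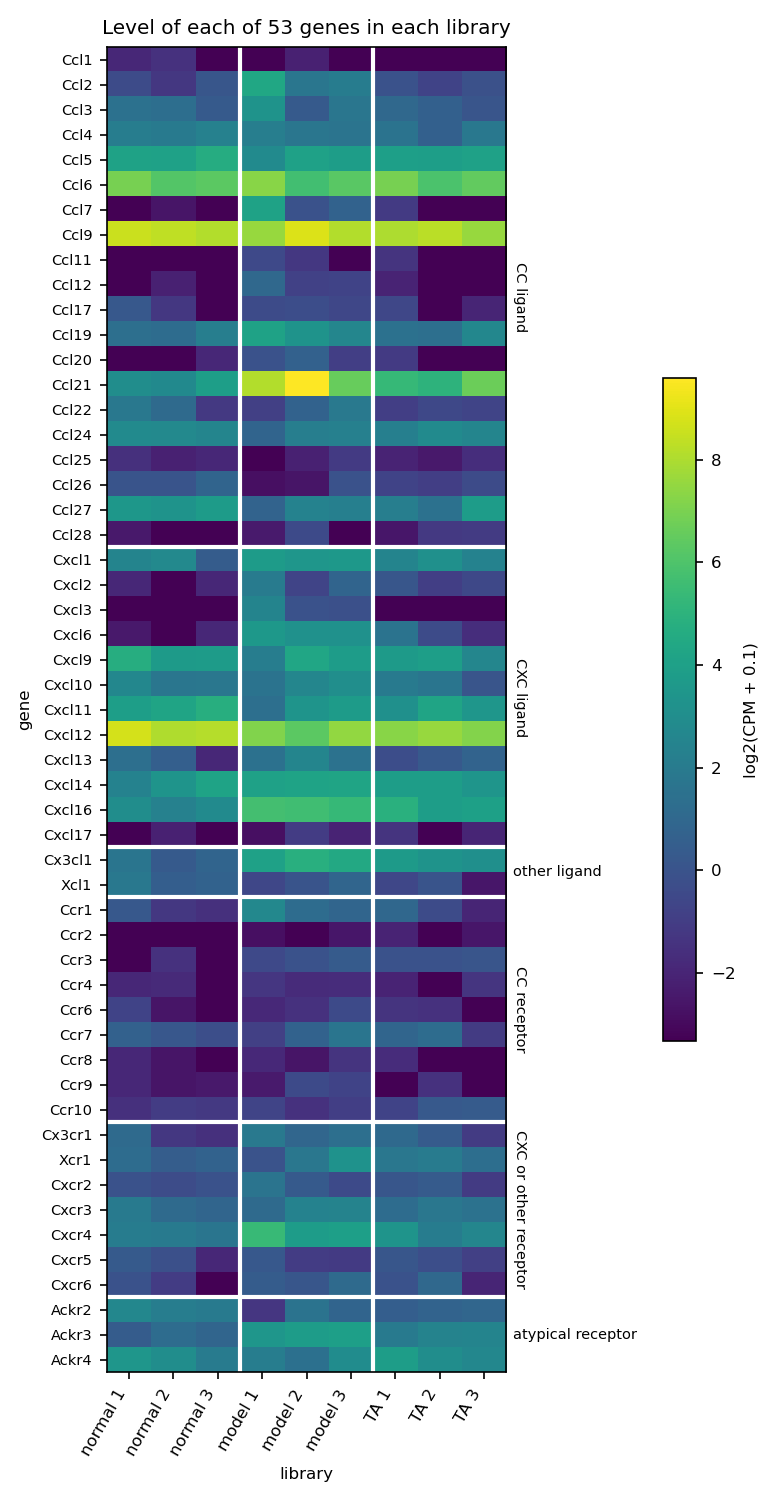
Heat map of log2(CPM + 0.1) for 53 genes (y axis, in order of role) in the 9 libraries (x axis). Ccl9, Ccl6 and Cxcl12 are bright in all libraries, Ccl21 is brightest in the model libraries, and Ccr2, Ccr4, Ccr8 and Ccr9 are dark throughout.

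The TA VS Model comparison asks which genes differed between the TA and model groups. Of the 39 members tested, 12 were lower in the TA group by p and fold and 0 were higher. Among all 12781 genes tested, 10.2% were lower and 2.11% higher by that rule. The filter passed 11 members only through the model libraries, and 6 of the 12 (Ccl2, Ccl7, Ccl22, Cxcl3, Cxcl6 and Cxcl13) were among them and could hardly be other than lower. The 12 were Ackr3, Ccl2, Ccl7, Ccl19, Ccl21, Ccl22, Cx3cl1, Cxcl3, Cxcl6, Cxcl13, Cxcl16 and Cxcr4. None passed an adjusted p under 0.05 in edgeR, where 0% of all genes were called higher and 0% lower. At an unadjusted p under 0.05, 13 members and 1999 genes in all passed. DESeq2 called 7 of the members lower and limma voom 4, against 456 of 16898 and 121 of 12781 genes. The TA libraries lay wholly below the model libraries for 11 members, against 12.6% of all genes, and wholly above for none, against 10.5%. The median log2 fold change was -0.91 over the tested members and -0.0038 over all genes tested. Without model replicate 1, 12 members were lower by p and fold, against 4.96% of all genes, with Ccl19 no longer among them and Cxcl10 added.

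In TA VS Normal, 33 members were tested and 0 passed an adjusted p under 0.05 in edgeR, against 0.23% of all 12179 genes called higher and 0.0328% lower. At an unadjusted p under 0.05 there were 8 members and 1148 genes in all, and by adjusted p DESeq2 and limma voom called 6 and 2 members. Over all genes, DESeq2 called 262 of 16045 higher and 70 lower, and limma voom 100 and 26 of 12179. With the replicate number as a block, 3 members rose at an adjusted p under 0.05, against 159 of 12179 genes: Ccl21, Cx3cl1 and Cxcl16. By p and fold, Ackr3, Ccl21, Ccr3, Cx3cl1 and Cxcl16 were higher, 5 members against 4.24% of all genes. Ackr2, Cxcl12 and Xcl1 were lower, 3 members against 1.02%. Ccr3 had passed the filter only through the TA libraries and could hardly be other than higher. Xcl1 had passed it only through the normal libraries and could hardly be other than lower. With library totals, 7 were higher and 2 lower, against 715 and 81 of all 12179 genes. The groups did not overlap for 6 members higher in TA, against 8.26% of all genes, and for 6 lower, against 6.81%. The 3 comparisons share libraries pairwise, so the values of each are set side by side below.

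**Figure D3:**
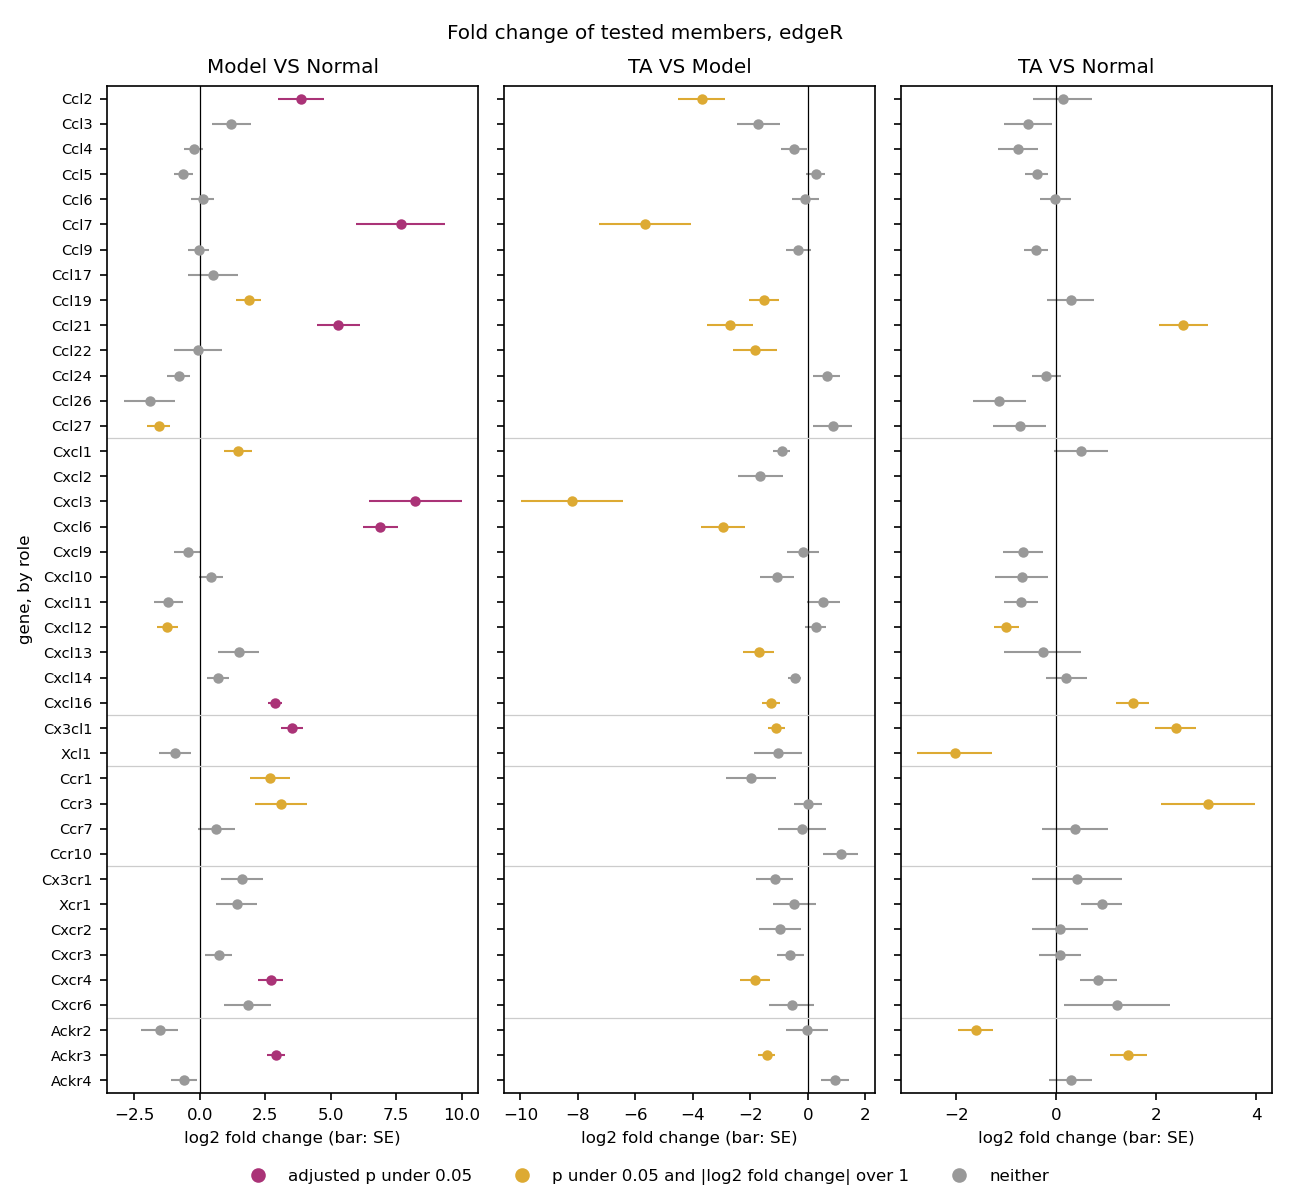
Log2 fold change with its SE (x axis, a different range in each panel) of the tested members reported by name (y axis, by role) in the 3 comparisons. Purple marks an adjusted p under 0.05, which only members higher in Model VS Normal reach, and yellow marks p and fold; the fitted values of Cxcl3 and Ccl7, near 0 in normal liver, depend on the prior count.

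Among the CC ligands, Ccl21 had the highest mean level of any member in the model group, at 584 ± 474 FPKM (SD, n = 3), although Ccl9 exceeded it in model replicate 3, at 220 against 121 FPKM. Its counts were 93, 107 and 177 in the normal libraries, 6200, 11746 and 1360 in the model libraries and 567, 375 and 1380 in the TA libraries. In CPM these were 7.79, 6.92 and 14.8, then 273, 766 and 96.3, then 40.6, 31.8 and 103. The 3 groups were ordered normal, TA, model, but TA replicate 3 lay above model replicate 3. Ccl21 rose in Model VS Normal by a log2 fold change of 5.29 ± 0.83 (SE; adjusted p = 0.015, edgeR, n = 3 per group). Between TA and model its log2 fold change was -2.71 ± 0.81 (adjusted p = 0.26, edgeR), or -1.68 without model replicate 2, and in TA VS Normal 2.54 ± 0.49 (adjusted p = 0.096, edgeR). With the replicate block the TA VS Normal value was 2.44 with an adjusted p of 0.0021 in edgeR, where the alternatives ranged from 2.84e-05 to 0.32. Leaving out model replicate 2 brought the Model VS Normal value to 4.26 and leaving out model replicate 3 brought it to 5.73.

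Ccl19, the other Ccr7 ligand, lay at 2.51, 2.26 and 4.52 CPM in normal, 17.2, 9.91 and 5.95 in model and 2.72, 2.55 and 6.27 in TA libraries. Every model library exceeded every normal one, and TA replicate 3 reached into the model range. Its log2 fold change of 1.86 ± 0.49 in Model VS Normal had an adjusted p of 0.056 in edgeR, and that in TA VS Model was -1.54 ± 0.52 (adjusted p = 0.27, edgeR). Ccr7 itself stayed between 0.373 and 3.11 CPM, with overlap between all groups. Ccl21 is made by lymphatic endothelium and by the stroma of lymphoid tissue. Of 5 genes used as lymphatic markers, named after the values were seen, Mmrn1 and Pdpn rose in Model VS Normal by 4.46 and 5.02 (adjusted p = 0.015 and 0.029, edgeR). In the normal libraries Mmrn1 was at 0.586, 0.906 and 0.334 CPM and Pdpn at 0.335, 0.388 and 0. So near the floor, they could hardly be other than higher. The log2 fold changes of Flt4, Prox1 and Lyve1 were 0.90, -0.55 and 0.018, and none passed the adjusted threshold. The part of those cells in the level of Ccl21 was not tested.

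Ccl2, also called MCP-1, draws monocytes through Ccr2, and Ccl7 shares that receptor. Ccl2 lay at 0.67, 0.324 and 1.00 CPM in normal libraries, at 20.7, 3.19 and 4.18 in model and at 0.859, 0.51 and 0.821 in TA libraries. Model replicate 1 was far above the other model libraries, yet all 3 exceeded every normal and TA library. Ccl2 rose in Model VS Normal by 3.86 ± 0.87 (adjusted p = 0.040, edgeR) and by 2.47 without model replicate 1. The TA VS Model value was -3.69 ± 0.82 (adjusted p = 0.23, edgeR), or -2.31 without model replicate 1. TA and normal libraries overlapped, with a log2 fold change of 0.13 ± 0.59. Ccl7 had counts of 0, 1 and 0 in normal, 393, 13 and 22 in model and 5, 0 and 0 in TA libraries. The model to normal ratio of Ccl7 was 323 with a 95% exact interval of 57.7 to 12791 (adjusted p = 0.039, edgeR), and without model replicate 1 it was 46.8 (7.86 to 1899). These intervals cover counting error only. Ccl12, a further ligand of this group, had 2 counts in the normal libraries, 59 in the model libraries and 2 in the TA libraries, and did not pass the filter. Ccr2 had 0 to 2 counts in every library, which is too few to compare.

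Ccl9, Ccl6 and Ccl5, the most abundant CC ligands of normal liver, passed neither rule. Ccl9 lay at 370, 329 and 277 CPM in normal, 192, 473 and 270 in model and 254, 308 and 190 in TA libraries, so that all groups overlapped. The Model VS Normal value of Ccl9 was -0.042 ± 0.40, and 0.51 with library totals. Ccl6 lay between 50.9 and 158 CPM in all 9 libraries. Ccl5, which draws T cells, was 16.9 to 25.5 CPM in normal and 7.14 to 16.4 in model libraries, with an adjusted p of 0.27 in edgeR. Ccl3 and Ccl4, macrophage inflammatory proteins that draw monocytes and T cells, had log2 fold changes of 1.19 ± 0.74 and -0.24 ± 0.36 in Model VS Normal, and neither passed the test. With library totals the value of Ccl4 was 0.45.

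Ccl27, an epithelial ligand best known from skin, was on the lower side. It lay at 11.1, 9.77 and 13.3 CPM in normal, 1.63, 5.22 and 4.60 in model and 4.44, 2.72 and 13.8 in TA libraries. No model library reached a normal one, while TA replicate 3 exceeded all of them. The log2 fold change of Ccl27 in Model VS Normal was -1.57 ± 0.45 (adjusted p = 0.068, edgeR), or -1.22 (adjusted p = 0.046) without model replicate 1. The gene overlaps Il11ra1 in the RefSeq annotation, and without strand in the counting their reads cannot be told apart. Il11ra1 itself had a log2 fold change of -0.59 ± 0.25. Ccl22, which binds Ccr4, was at 3.43, 2.14 and 0.334 CPM in normal, 0.441, 1.56 and 3.61 in model and 0.430, 0.594 and 0.523 in TA libraries, and all groups overlapped. Its log2 fold change in TA VS Model was -1.84 ± 0.78 with an adjusted p of 0.31 in edgeR. The eosinophil ligands Ccl24 and Ccl26 were lower in CPM in every model library than in any normal one, with adjusted p-values of 0.26 and 0.24 in edgeR. In FPKM both overlapped. Ccl24 was 3.45 in model replicate 2 and 3.10 in normal replicate 3, and Ccl26 was 1.75 in model replicate 3 and 1.51 in normal replicate 1.

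Among the CXC ligands, Cxcl6 and Cxcl3, which attract neutrophils through Cxcr2, rose in the model group, and Cxcl1, of the same kind, was higher by p and fold. Cxcl6 had counts of 1, 0 and 2 in normal, 265, 141 and 130 in model and 41, 8 and 3 in TA libraries. The model libraries, at 11.7, 9.19 and 9.20 CPM, lay above all the TA libraries, at 2.94, 0.679 and 0.224. The model to normal ratio of Cxcl6 was 135 (95% exact interval 45.9 to 656) and the adjusted p 0.0074 in edgeR. Between TA and model its log2 fold change was -2.97 ± 0.77 (adjusted p = 0.25, edgeR). Cxcl3 had 124, 13 and 11 counts in the model libraries and 0 in all normal and TA libraries. Against a floor of 3 counts over the group, Cxcl3 was at least 37.2-fold higher in model than in normal libraries (adjusted p = 0.048, edgeR), and at least 10.7-fold without model replicate 1. Cxcl1 lay at 5.53, 6.54 and 1.25 CPM in normal, 13.3, 10.95 and 11.8 in model and 5.58, 8.66 and 5.15 in TA libraries. Its model libraries stood above all others, with a log2 fold change of 1.46 ± 0.53 in Model VS Normal (adjusted p = 0.12, edgeR) and of -0.91 ± 0.30 in TA VS Model. Cxcl2 passed the filter only in TA VS Model, with counts of 2, 0 and 2 in normal, 93, 8 and 24 in model and 14, 5 and 8 in TA libraries. Cxcl1, Cxcl2 and Cxcl3 are close in sequence, so reads that fit more than 1 of them may have been split or lost in the counting.

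The ligands of Cxcr3, which interferon induces and which draw T and NK cells, passed neither rule with all libraries. Cxcl9 lay at 13.01 to 26.1 CPM in normal and 4.28 to 19.6 in model libraries, with a log2 fold change of -0.47 ± 0.53, or 0.021 with library totals. Cxcl10 lay at 3.24 to 6.11 and 2.91 to 8.07 CPM, with 0.42 ± 0.47. Cxcl11 lay at 15.1 to 27.0 and 2.56 to 13.5 CPM, so that every model library was below every normal one. Its log2 fold change was -1.20 ± 0.55, with an adjusted p of 0.19 in edgeR. In FPKM the groups overlapped for Cxcl11, with 9.13 in model replicate 3 and 8.11 in normal replicate 1. Cxcl10 and Cxcl11 overlap Art3 in the annotation, which had a log2 fold change of 1.51 ± 0.65 in Model VS Normal (adjusted p = 0.17, edgeR). Cxcr3 itself overlapped between the groups, at 1.76 to 3.93 CPM in normal and 2.07 to 5.45 in model libraries.

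Ligands of both CXC groups hold a match to the NF-κB consensus before their start site, and those of 5 are printed because NF-κB is a well known inducer of such genes. RefSeq windows from 250 bases before to 50 after the start were found for 41 of the 54 members. The κB consensus was searched on both strands with overlapping matches joined, and 8 of the 41 members held it, against 4.18% of all 33469 windows. Among those 8, in CPM, Cxcl1, Cxcl2 and Cxcl6 were higher in every model than in every normal library, as were Ccl20 and Ccr3. Cxcl10 and Ccl9 overlapped, and Cxcl11 was lower. Each stretch below runs 5′ to 3′ on the gene's strand in GRCr8, ends before the start site and has the κB match in capitals. They lie at chr14:17479322-17479441 (- strand) for Cxcl1, chr14:17467256-17467375 (- strand) for Cxcl2, chr14:17596418-17596537 (- strand) for Cxcl6, chr14:15988846-15989005 (+ strand) for Cxcl10 and chr14:15973608-15973727 (+ strand) for Cxcl11.
Cxcl1: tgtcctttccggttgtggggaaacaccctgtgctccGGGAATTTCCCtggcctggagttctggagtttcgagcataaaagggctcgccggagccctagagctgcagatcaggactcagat
Cxcl2: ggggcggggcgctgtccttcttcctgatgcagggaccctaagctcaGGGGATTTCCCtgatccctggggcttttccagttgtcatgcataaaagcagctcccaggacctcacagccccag
Cxcl6: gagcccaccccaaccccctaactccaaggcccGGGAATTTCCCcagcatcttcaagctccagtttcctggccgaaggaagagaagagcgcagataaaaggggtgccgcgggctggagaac
Cxcl10: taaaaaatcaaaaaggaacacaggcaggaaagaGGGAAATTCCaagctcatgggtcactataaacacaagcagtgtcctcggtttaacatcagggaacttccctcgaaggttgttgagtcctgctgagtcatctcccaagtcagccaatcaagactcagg
Cxcl11: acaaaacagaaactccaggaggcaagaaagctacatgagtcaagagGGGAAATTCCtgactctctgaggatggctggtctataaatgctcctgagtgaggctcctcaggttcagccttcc
The match began 84, 74 and 88 bases before the start in Cxcl1, Cxcl2 and Cxcl6, and 187 and 74 bases before it in Cxcl10 and Cxcl11. Cxcl1 and Cxcl6 carry the same 11 bases. Further members with a match were Ccl9, Ccl20 and Ccr3, while the windows of Ccl21, Ccl7, Cxcl16, Cx3cl1, Cxcr4 and Ackr3, which rose in the model group, held none. Ccl2 and Cxcl3, which rose too, had no window and were not searched. The AP-1 motif TGANTCA was in 7 of the 41 windows against 7.33% of all, the interferon response motif (a pair of GAAA with 2 bases between them) in 2 against 3.92%, and the STAT motif TTCNNNGAA in 6 against 8.87%. A match is a description of the letters and not of binding.

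Cxcl12, the homeostatic ligand of Cxcr4 and Ackr3, was lower by p and fold in both CCl4 groups than in the normal group. It lay at 423, 260 and 281 CPM in normal, 141, 80.4 and 181 in model and 156, 190 and 145 in TA libraries. In CPM, all model and TA libraries were below the lowest normal library, and the model and TA libraries overlapped. In FPKM, model replicate 1 at 44.8 lay above normal replicates 2 and 3 at 40.9 and 42.4. Cxcl12 had log2 fold changes of -1.24 ± 0.40 in Model VS Normal (adjusted p = 0.090, edgeR) and -1.0 ± 0.25 in TA VS Normal (adjusted p = 0.17, edgeR). In TA VS Model it was 0.27 ± 0.36. With library totals the 3 values were -0.61, -0.82 and -0.21, and Cxcl12 no longer passed the p and fold rule in either comparison with normal. Cxcl14, a ligand of epithelia, and Cxcl13, which draws B cells through Cxcr5, had log2 fold changes of 0.70 ± 0.42 and 1.48 ± 0.78 in Model VS Normal that did not pass the adjusted threshold. Cxcl13 lay at 2.51, 1.42 and 0.167 CPM in normal, 2.69, 5.80 and 2.83 in model and 0.716, 1.104 and 1.64 in TA libraries. Model and TA did not overlap, and the TA VS Model log2 fold change was -1.72 ± 0.53 (adjusted p = 0.26, edgeR).

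Cxcl16 and Cx3cl1 are made as membrane proteins that can tether leukocytes and are shed by proteases. Both rose in Model VS Normal with little spread between libraries. Cxcl16 lay at 8.04, 5.05 and 7.02 CPM in normal, 52.7, 49.9 and 40.4 in model and 28.7, 14.4 and 16.0 in TA libraries. The 3 groups did not overlap, with TA between the others. The log2 fold change of Cxcl16 was 2.85 ± 0.27 in Model VS Normal (adjusted p = 0.0074, edgeR) and -1.29 ± 0.32 in TA VS Model (adjusted p = 0.25, edgeR). In TA VS Normal it was 1.53 ± 0.33 (adjusted p = 0.13, edgeR, and 0.018 with the replicate block, where the alternatives ranged from 0.0035 to 0.42). Cxcl16 overlaps Zmynd15 in the annotation, which was at 3.68 to 9.26 CPM in the model and at 1.26 CPM or less in the normal and TA libraries. Cx3cl1, also called fractalkine, lay at 3.10, 1.16 and 1.67 CPM in normal, 16.6, 28.3 and 22.0 in model and 13.1, 9.85 and 8.59 in TA libraries. Again the TA libraries lay wholly between the other groups. Cx3cl1 had a log2 fold change of 3.52 ± 0.42 in Model VS Normal (adjusted p = 0.010, edgeR), -1.10 ± 0.29 in TA VS Model (adjusted p = 0.25, edgeR) and 2.39 ± 0.40 in TA VS Normal (adjusted p = 0.064, edgeR, and 0.012 with the replicate block, where the alternatives ranged from 7.98e-06 to 0.30). Xcl1, made by T and NK cells, lay at 3.43, 1.36 and 1.59 CPM in normal, 0.573, 0.913 and 1.77 in model and 0.573, 0.934 and 0.0747 in TA libraries. Only the normal and TA groups did not overlap, with a log2 fold change of -2.03 ± 0.75 (adjusted p = 0.42, edgeR).

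**Figure D4:**
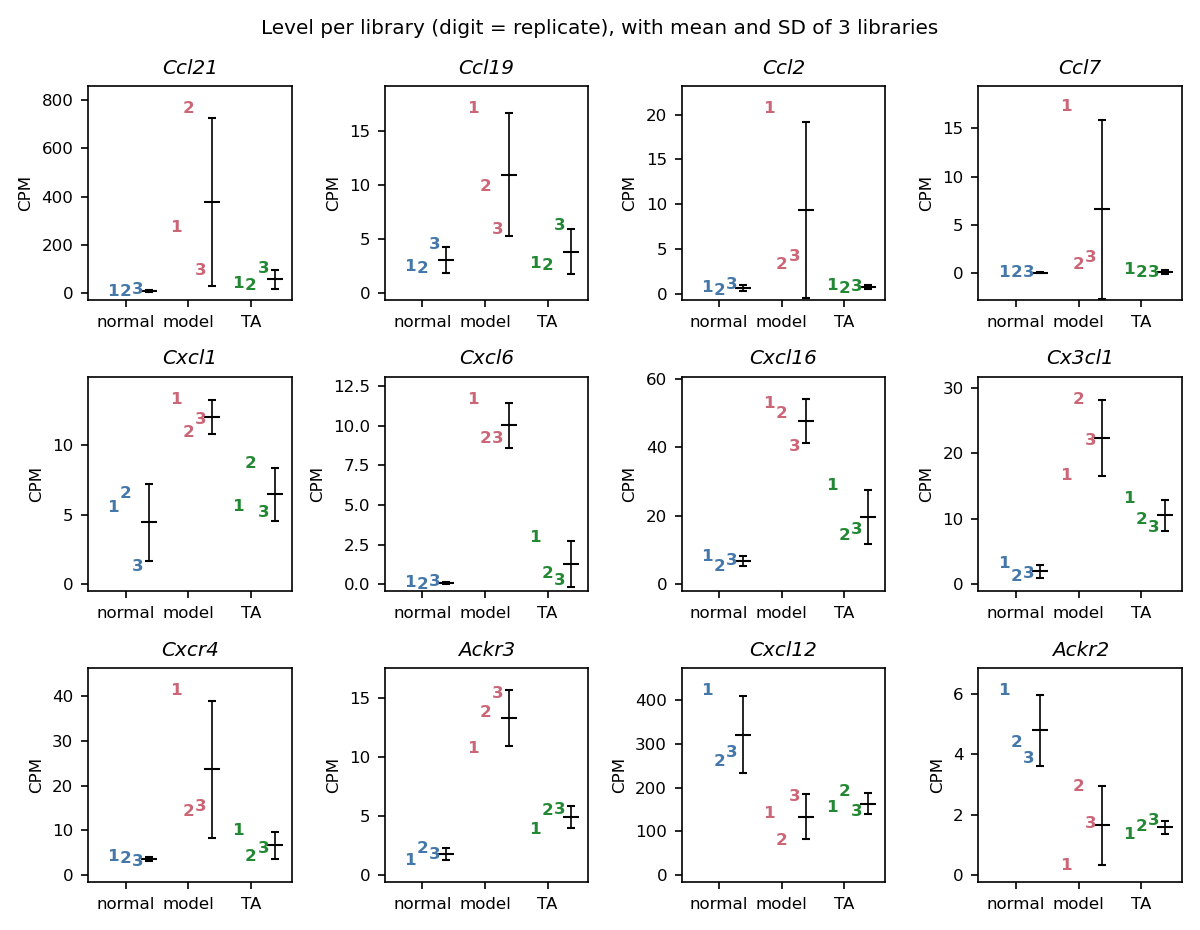
CPM (y axis) of 12 members in the normal, model and TA groups (x axis), each digit being the replicate number of a library and each bar the mean ± SD of 3 libraries. The TA libraries of Cxcl16, Cx3cl1 and Ackr3 lie between the other groups, while those of Cxcl12 and Ackr2 overlap the model libraries.

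Among the signalling receptors, Cxcr4 rose. It was the highest of the CXC and other receptors per length, at 19.7 ± 18 FPKM in the model group (SD, n = 3). Its CPM were 4.19, 3.69 and 3.18 in normal, 41.2, 14.1 and 15.4 in model and 10.02, 4.16 and 6.05 in TA libraries. Every model library exceeded every normal and TA library, and model replicate 1 was the highest. The log2 fold change of Cxcr4 in Model VS Normal was 2.70 ± 0.47 (adjusted p = 0.020, edgeR), or 1.99 without model replicate 1. Against the model group the TA value was -1.83 ± 0.52 (adjusted p = 0.25, edgeR), or -1.12 without that library, and in TA VS Normal 0.84 ± 0.37 (adjusted p = 0.54, edgeR).

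Ccr1, a receptor of monocytes and neutrophils, had counts of 13, 5 and 3 in normal, 145, 35 and 25 in model and 26, 8 and 2 in TA libraries. The model libraries, at 1.77 to 6.40 CPM, lay above the normal libraries, at 0.251 to 1.09. Ccr1 had a log2 fold change of 2.69 ± 0.77 in Model VS Normal (adjusted p = 0.069, edgeR), or 1.87 without model replicate 1. Ccr3, known from eosinophils, had counts of 0, 4 and 0 in normal, 14, 13 and 17 in model and 12, 10 and 13 in TA libraries. It was higher in both CCl4 groups by p and fold, with log2 fold changes of 3.09 ± 1.00 and 3.04 ± 0.94 against normal and adjusted p-values of 0.093 and 0.30 in edgeR. Between TA and model the value for Ccr3 was 0.0069 ± 0.50. Ccr3 overlaps Ccr1l1 in the annotation, which was at 0.49 CPM or less in every library. The receptors of the membrane-bound ligands, Cx3cr1 and Cxcr6, had log2 fold changes of 1.60 ± 0.80 and 1.82 ± 0.90 in Model VS Normal without passing the adjusted threshold. Cxcr6 overlaps Fyco1 in the annotation, which had a log2 fold change of -0.17 ± 0.26 there. Cxcr2, the receptor of Cxcl1, Cxcl3 and Cxcl6, had 10, 11 and 10 counts in normal and 69, 18 and 9 in model libraries, and was not tested there.

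The atypical receptors differed from each other. Ackr3, which scavenges Cxcl12, rose in Model VS Normal by 2.92 ± 0.35 (adjusted p = 0.0095, edgeR). It lay at 1.26, 2.26 and 1.76 CPM in normal, 10.7, 13.8 and 15.4 in model and 3.87, 5.44 and 5.53 in TA libraries. The 3 groups did not overlap, with TA in between. Its log2 fold change was -1.44 ± 0.30 in TA VS Model (adjusted p = 0.23, edgeR) and 1.45 ± 0.37 in TA VS Normal (adjusted p = 0.19, edgeR). Ackr2, which degrades inflammatory CC chemokines such as Ccl2, lay at 6.11, 4.40 and 3.85 CPM in normal, 0.309, 2.93 and 1.70 in model and 1.36, 1.61 and 1.79 in TA libraries. In CPM, the model and TA libraries were all below the normal libraries and overlapped with each other. In FPKM, model replicate 2 at 2.54 lay above normal replicate 3 at 2.34. The log2 fold change of Ackr2 was -1.54 ± 0.70 in Model VS Normal (adjusted p = 0.19, edgeR) and -1.61 ± 0.36 in TA VS Normal (adjusted p = 0.13, edgeR). Ackr4, which scavenges Ccl19 and Ccl21, overlapped between all groups, at 4.10 to 10.7 CPM in normal, 2.61 to 7.72 in model and 6.12 to 14.3 in TA libraries. Its gene lies in Acad11, whose reads may be counted with it.

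**Figure D5:**
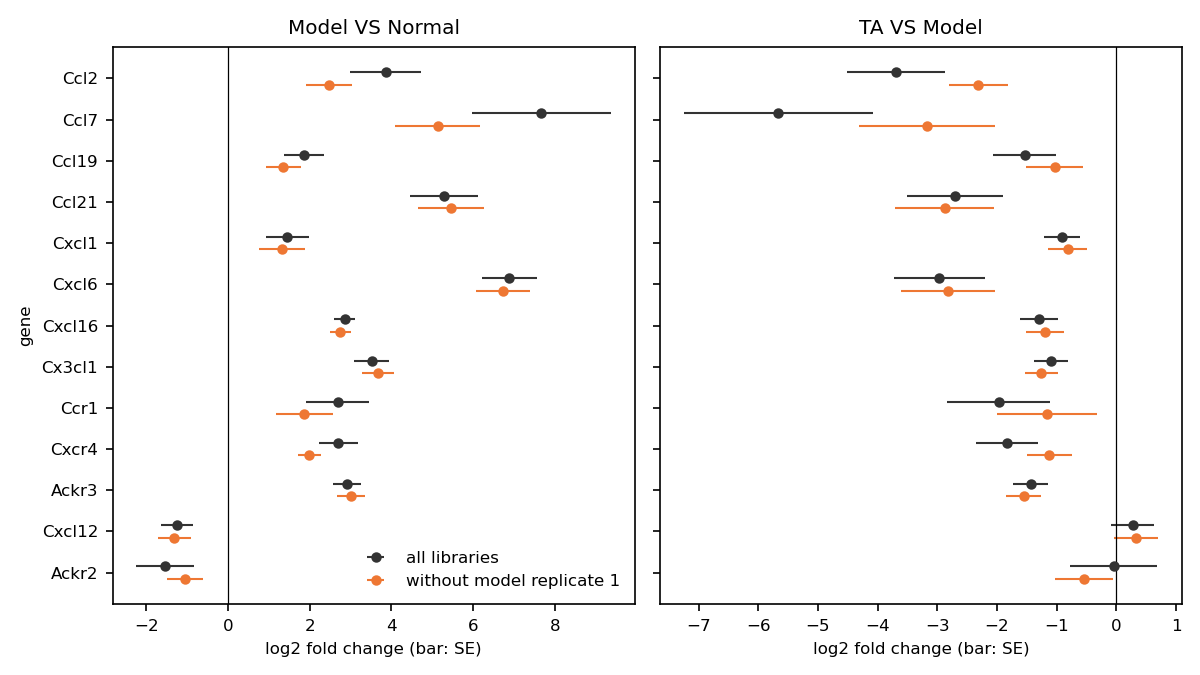
Log2 fold change with its SE (x axis, a different range in each panel) of 13 members (y axis) with all libraries and without model replicate 1. Ccl2, Ccl7, Ccr1 and Cxcr4 come nearer to 0 without that library, while Ccl21, Cxcl6, Cxcl16, Cx3cl1 and Ackr3 move by less than 0.2.

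Many members were low. In all, 13 members passed the filter in no comparison, and 9 of them, Ccl1, Ccl25, Ccl28, Ccr2, Ccr4, Ccr6, Ccr8, Ccr9 and Cxcl17, had at most 10 counts in any library. Ccl20, which draws cells that carry Ccr6, had 0, 0 and 2 counts in normal, 19, 23 and 6 in model and 5, 0 and 0 in TA libraries. The model to normal ratio of Ccl20 was 18.1 (95% exact interval 4.75 to 154, counting error only). A difference in the 9 lowest genes was not detectable at this depth.

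Members that lie next to each other in the genome differed alike in some rows and not in others. On chromosome 10, by RefSeq's GRCr8 annotation, Ccl2, Ccl7, Ccl11, Ccl12 and Ccl1 lie in a row with no other coding gene between them. Ccl5, Ccl9, Ccl6, Ccl3 and Ccl4 form a second row, 27 coding genes further on. Ccl2 and Ccl7 of the first row rose in the model group and the untested Ccl12 lay higher in every model than in every normal library, while no gene of the second row was called by either rule in any comparison. On chromosome 5, Ccl27 is followed directly by Ccl19 and, after 1 coding gene, by Ccl21. In Model VS Normal the log2 fold changes along that row were -1.57, 1.86 and 5.29. On chromosome 19, Cx3cl1 lies directly between Ccl17 and Ccl22, whose log2 fold changes of 0.50 ± 0.95 and -0.075 ± 0.90 stood beside its own 3.52. On chromosome 14, Cxcl2, Cxcl1, Cxcl3 and Cxcl6 follow one another with at most 2 coding genes in between, and all 4 were higher in every model than in every normal library. Cxcl11, Cxcl10 and Cxcl9 lie 17 coding genes away from them and passed neither rule. On chromosome 12, the adjacent Ccl24 and Ccl26 were both lower in CPM, but not in FPKM, in every model than in every normal library.

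Genes that act with chemokines were read from 4 lists, whose counts stand against 6.86% of all genes called higher in Model VS Normal by adjusted p. Of 60 tested transducers of chemokine receptors, 5 rose in Model VS Normal at an adjusted p under 0.05 in edgeR and 0 fell. They were Gng2, Ptk2b, Ncf1, Rgs1 and Rgs2, and the list's median log2 fold change was 0.66. Rgs1 and Rgs2, which shorten receptor signalling, had values of 2.60 ± 0.50 and 2.81 ± 0.45. Of 25 tested genes of leukocyte adhesion, 4 rose (Aoc3, Cd44, Ezr and Itgax) and 0 fell, with a median of 1.02. Of 33 tested cytokines, receptors and NF-κB genes that induce chemokines, Relb rose by 1.40 ± 0.28 and none fell, with a median of 0.20. Il1b had a log2 fold change of 0.61 ± 0.40 and Nfkbia, a feedback target of NF-κB, of -0.012 ± 0.26. Other NF-κB genes of that list differed from Nfkbia. The values were 1.57 for Nfkbie, 1.44 for Tnfaip3, 0.94 for Nfkb1 and 0.98 for Nfkb2, and -0.25 for Nfkbib and -0.76 for Nfkbiz. None of these passed the adjusted threshold. Tnf, Ifng, Il17a and Il13 were not among the genes listed for all 9 libraries. Of 18 tested chemokine-like genes outside the symbol rule, 5 rose and 0 fell, with a median of 1.75. They were Pf4, the platelet CXC ligand, at 3.03 ± 0.74, the atypical receptor Ccrl2 at 1.86 ± 0.46, Cmtm7, Mmp2 and Mmp12. Ccrl2 and Mmp12 reached at most 0.84 and 0.971 CPM in the normal libraries and could hardly be other than higher. In TA VS Model, 0 genes of the 4 lists passed an adjusted p under 0.05, while 12 of 62, 5 of 25, 2 of 33 and 7 of 18 tested were lower by p and fold, against 10.2% of all genes, and 0 were higher. The lists' medians there were -0.53, -0.68, -0.016 and -1.27.

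Markers of several cell types moved with the model group, and their counts stand against 6.86% of all genes called higher by adjusted p. Of 9 tested neutrophil markers, 5 rose in Model VS Normal at an adjusted p under 0.05 in edgeR. The list's 11 genes summed to 11.8 to 31.0 CPM in normal, 99.7 to 294 in model and 33.2 to 94.6 in TA libraries. Of these sums, Lcn2 alone was 118, 242 and 17.2 CPM in model replicates 1 to 3 and 57.8, 16.9 and 7.47 in TA replicates 1 to 3. Lcn2 was not among the 5 genes called (adjusted p = 0.077, edgeR). Mpo and Camp, which define neutrophils and were both called, were at 0 in 1 normal library each. They were at 0.17 CPM or less in every normal library and could hardly be other than higher. Of 11 stellate cell and myofibroblast markers, 7 rose, with sums of 246 to 345, 1265 to 12346 and 744 to 1280.1 CPM. The highest of these was model replicate 1, and the other model libraries were at 1265 and 1579 CPM. Of 9 bile duct markers, 7 rose, with sums of 39.6 to 66.1, 173 to 2017 and 65.6 to 82.7 CPM. Here too the highest was model replicate 1, in which Spp1 alone was 1817 CPM, and the other model libraries were at 173 and 264 CPM. Krt7 and Cldn4, both called, reached at most 0.17 and 0.67 CPM in the normal libraries and could hardly be other than higher. Of 8 dendritic cell markers, 2 rose, with sums of 24.7 to 38.4, 71.1 to 196 and 30.1 to 50.7 CPM. No marker rose or fell among 13 of Kupffer cells and macrophages, 15 of T and NK cells, 9 of B and plasma cells, 10 of endothelium and 10 of hepatocytes, by that rule. By p and fold, these lists held 4, 1, 0, 2 and 0 genes that were higher, against 16.6% of all genes. They held 2, 0, 0, 1 and 1 that were lower, against 5.55%. Of the Kupffer cell and macrophage markers, Adgre1, Cd68, Csf1r and Fcgr1a were higher and Cd5l and Marco lower. The sums were 651 to 830, 480.5 to 1364 and 654 to 1229.8 CPM for Kupffer cells and macrophages and 38.1 to 67.3, 57.0 to 80.7 and 44.1 to 51.7 for T and NK cells. They were 38.3 to 48.4, 23.6 to 131 and 74.2 to 80.1 CPM for B and plasma cells and 282 to 325, 266 to 574 and 305 to 449 for endothelium. For hepatocytes they were 151754 to 174569, 31906 to 115203 and 118070 to 177642 CPM, lowest in model replicate 1. The part of these cells in the chemokine levels was not tested.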

How the data were processed

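RNA-seq of 9 rat liver libraries was analysed. In 2 tables, 1 for normal and model and 1 for TA and model, the authors deposited read counts per gene, the same counts as a size-factor normalized signal, and FPKM. Per the labels, DESeq2 was used and the genome was mm9, while the methods name a human build and the symbols are those of rat, so the reference is uncertain. Strand use in the counting is not given in the sources used here. Columns with the authors' own fold changes and p-values were not used. Counts were fitted in edgeR 4.0.16 (R 4.3.3; glmQLFit, TMM, filterByExpr) on all genes, with 3 libraries per group, and p-values were adjusted over all genes tested. TA VS Normal joined the tables through the 16730 shared genes. The model counts were identical in both tables. In simulated data the fit was tested before use. Alternatives were DESeq2 1.42.0, limma voom 3.58.1 with sample weights, a newer form of the quasi-likelihood fit, library totals, RLE factors, no filter, at least 30 counts in 3 libraries, 1 fit of all libraries, the replicate number as a block, and each library left out. Same-numbered libraries deviated together in TA VS Normal (r = 0.26, 0.43 and 0.50 across genes) and not in Model VS Normal (0.21, -0.057 and -0.052) or TA VS Model (0.22, -0.035 and 0.0065). For that reason values with the block are printed beside the unpaired main fit in TA VS Normal for Ccl21, Cx3cl1 and Cxcl16. Only these members passed an adjusted p under 0.05 with the block there. Block values of the other members in that comparison are not printed. No main fit used the block, which was an alternative in all 3 comparisons. Values in every library are given for members called by either rule, for Ccl2 and for the highest member of each role by FPKM, and 1 member enters the counts but is not reported by name here. The members and lists were chosen with earlier results of these data known. Motifs were searched in RefSeq promoter windows of GRCr8, with scipy 1.17.1 for intervals. Intervals and floors cover counting error only.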

Additional observations from a re-analysis of the deposited data

How the results depend on the processing

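Model VS Normal gave 9 members at an adjusted p under 0.05, 16 with DESeq2 and 18 with limma voom, and 0 to 14 with 1 library left out. Counts over all genes for the DESeq2 and limma voom fits stand with each comparison above. TA VS Model gave 0, but 7 with DESeq2 and 4 with limma voom, and 0 with any library left out. TA VS Normal gave 0, but 6 with DESeq2, 2 with limma voom, 1 with library totals, 2 without the filter and 3 with the replicate block. By p and fold it gave 8, and 5 with the stricter filter. With the replicate block Model VS Normal gave 10 and TA VS Model 0, and the labels do not say that a number marks a shared animal or batch. The fold changes that changed sign were those of uncalled values. With library totals, Model VS Normal values became 0.36 for Ccl22, 0.51 for Ccl9, 0.45 for Ccl4 and 0.021 for Cxcl9, and TA VS Model values -0.41 for Ccr3, -0.21 for Cxcl12 and -0.11 for Ccl5. With limma voom they became 0.25 for Ccl9 in Model VS Normal and -0.16 for Ccl27 and -0.036 for Ccr3 in TA VS Model, and with the replicate block 0.33 for Ackr2 in TA VS Model. With 1 library left out, Model VS Normal spanned -0.99 to 0.55 for Ccl22 and -0.48 to 0.19 for Ccl9. TA VS Model spanned -0.54 to 0.69 for Ackr2, -0.085 to 1.26 for Ccl27, -0.57 to 0.10 for Ccl9 and -0.19 to 0.28 for Ccr3. TA VS Normal spanned -0.26 to 0.66 for Ccl19, -0.22 to 0.55 for Ccl2 and -0.79 to 0.45 for Cxcl13. The cause was not tested. Depth limits the members with few counts, and 3 libraries per group limit every adjusted p.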
